A study of Mus musculus with 272 samples.

Results

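The heavy end of the ribosome gradient was compared between the mouse morula and the blastocyst. The members were the libraries of fractions 6 to 10 of the 3 morula gradients and the 3 blastocyst gradients, 30 of the 272 libraries of the series, and the values of these fractions were averaged within each gradient, so that 3 morula values stood against 3 blastocyst values for each gene. Each gradient had been loaded with the lysate of about 100 embryos, made with cycloheximide, a drug that holds elongating ribosomes on their transcripts, and spun through 10 to 40% sucrose. The gradients are lettered A, B and C at each stage. Beside them stood the light end of the same gradients (fractions 1 to 5, 30 libraries) and 4 transcriptome pools of 20 whole embryos per stage (8 libraries). The labels name the stages and give no strain, genotype, age or treatment that would divide the embryos further. They number the fractions without naming them, so heavy here means fractions 6 to 10 and nothing finer. The labels do not say that gradients or pools came from separate collections of embryos, so p-values measure only the spread between these samples.

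In a sucrose gradient a transcript that carries many ribosomes sediments far, and its level in the heavy fractions is used as a measure of how much of it is being translated. The morula is a compacted ball of cells. The blastocyst that follows has an outer epithelium, the trophectoderm, which pumps fluid into a cavity and will form the placenta, and an inner cell mass, which gives the epiblast and the primitive endoderm. Keratins 8 and 18, the transcription factors Cdx2, Gata2, Gata3 and Eomes, and the sodium pump are classic features of the trophectoderm, whereas Pou5f1, Nanog and Sox2 belong to the inner cells.

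The 30 heavy libraries held 25.0 to 43.2 M reads (M stands for mega), and the values are CPM, the reads of each gene for every 1 M reads of its library. CPM is not scaled by gene length, so levels were compared between samples of the same gene and not between genes. Because each library is scaled to its own total, a level is a share of the RNA in that fraction and not an amount. Morula heavy libraries held 5518 to 9083 genes at a CPM of at least 1 and blastocyst heavy libraries 6550 to 10483, with the lowest number in fraction 6 of morula gradient A. Morula gradients agreed less well with each other than blastocyst gradients. Over 10721 genes, Pearson's r of log2 levels was 0.870 to 0.926 between morula gradients and 0.956 to 0.969 between blastocyst gradients, and gradient A of the morula had the 2 lowest values of its stage. Morula gradient B had a higher r with blastocyst gradient A (0.937) than with either other morula gradient. These r values are across genes, which are not independent replicates.

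Of the 10721 genes tested, 134 (1.25%) changed in the heavy fractions from morula to blastocyst, 68 higher (0.634%) and 66 lower (0.616%). Calls required a Benjamini-Hochberg adjusted p under 0.05 in limma's moderated test and a change of at least 1 on the log2(CPM + 1) scale, a scale that understates the change of low genes. The median change of all genes tested was 0.03. The calls lay close to the threshold, with adjusted p values of 0.0234 to 0.0497, while 2232 genes had an unadjusted p under 0.05. The group values of the 134 genes did not overlap. Among all genes tested, 13.7% had every blastocyst gradient above every morula gradient and 13.9% the reverse. The genes that just missed the call included Tcn2 (change 1.19, adjusted p 0.0514) and Sgk3 (change -1.56, adjusted p 0.0525).

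How many genes passed depended on single gradients and on the tool. Without morula gradient A 215 genes were called and without morula gradient B 128. Without morula gradient C, or without blastocyst gradient A, B or C, limma called 0 genes, although 2262, 1420, 1528 and 1507 genes then had an unadjusted p under 0.05. On reads recovered from the CPM steps, edgeR's quasi-likelihood test called 0 genes (lowest adjusted p 0.092, 2078 genes with an unadjusted p under 0.05), and DESeq2 called 631 genes, of which 255 were higher. The direction of each of the 134 genes was the same under all 20 alternatives in which it was tested, and 129 of them were among the DESeq2 calls. Their groups did not overlap, so leaving out a single gradient could not turn a direction. Each alternative also reused the same gradients, so a kept direction was largely fixed by the call. Limma also called 0 genes without the filter on low values (2517 genes with an unadjusted p under 0.05) and with fractions 8 to 10 alone (1819), and it called 11 with all 8 stages of the series in the fit. Averaging logged values over fractions gave 152 higher and 45 lower calls, with a median of all genes of 0.27. The calls named in what follows are those of limma with all 6 gradients, and each of them was lost without any 1 of those 4 gradients and by edgeR.

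**Figure D1:**
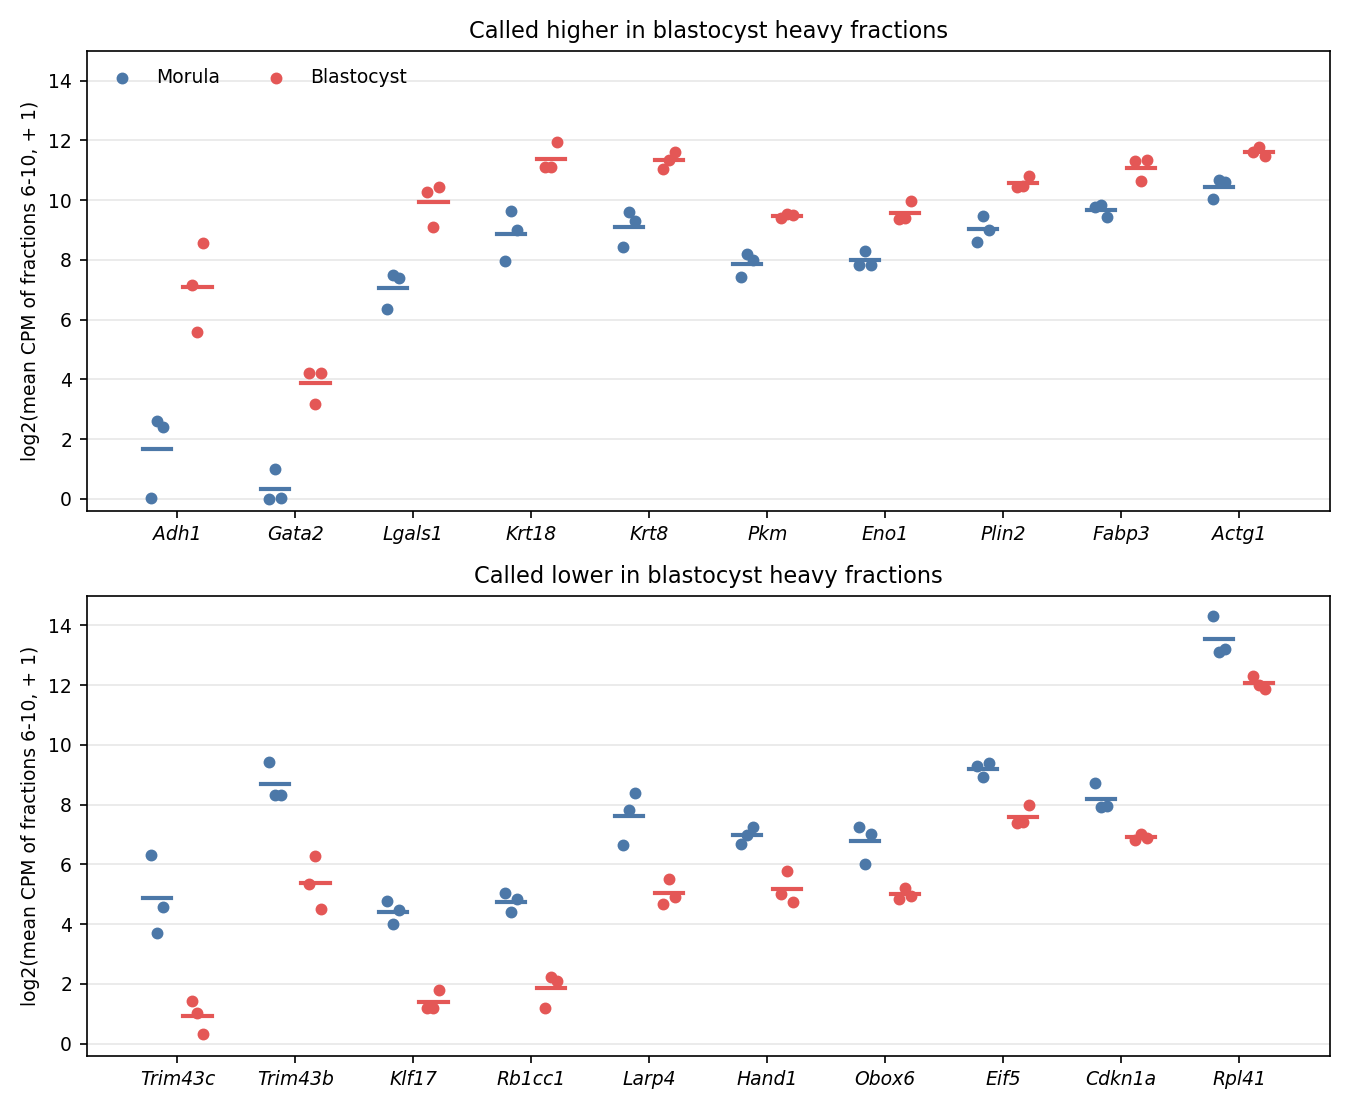
Heavy-fraction level of 20 called genes in each gradient, as log2 of the mean CPM of fractions 6 to 10 plus 1. Each point is 1 gradient (n = 3 per stage) and each bar the mean of the 3 logged values; the blue and red points of a gene do not overlap, and Adh1 and Gata2 have the widest gaps among the higher genes.

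The keratins of the trophectoderm rose in the heavy fractions. Krt8, the type II keratin of simple epithelia, stood at 345, 780.1 and 626 CPM in morula gradients A, B and C and at 2107, 2619.8 and 3092 CPM in the blastocyst gradients, a change of 2.22 ± 0.29 (SE) with an adjusted p of 0.0234. Its partner Krt18 stood at 246, 803 and 513 CPM in morulae and at 2219, 2197 and 3939 CPM in blastocysts (2.52 ± 0.39, adjusted p 0.0268). For both keratins morula gradient A was the lowest of the 6, and the lowest blastocyst gradient lay well above the highest morula gradient. Gata2, a zinc-finger factor of the trophoblast, was close to absent from morula heavy fractions (0, 0.999 and 0.0207 CPM) and present in each blastocyst gradient (17.7, 7.96 and 17.6 CPM), a change of 3.53 ± 0.54 (adjusted p 0.0263).

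The upstream sequences of the 2 keratin genes, which form 1 filament and rose together, are shown for reference. They are the 250 bases before the annotated start of each gene, 5′ to 3′ on the gene's own strand, from RefSeq on build GRCm38.p6 (Krt8 at chr15:102004343-102004592 on the minus strand, Krt18 at chr15:102027966-102028215 on the plus strand), an older build than the GRCm39 named for the counts. Capitals mark the GATA motif AGATAA, searched on both strands with its reverse complement TTATCT. It occurs in 9.99% of the 32851 promoter windows of that length, once in the Krt8 window, with its first base 239 bases before the start, and not in the Krt18 window. The TEAD motif GGAATG (12.6% of windows) and the TATA motif TATAAA (12.4%), searched the same way, match neither window. No binding was measured, and a match is a description of the letters only.
Krt8: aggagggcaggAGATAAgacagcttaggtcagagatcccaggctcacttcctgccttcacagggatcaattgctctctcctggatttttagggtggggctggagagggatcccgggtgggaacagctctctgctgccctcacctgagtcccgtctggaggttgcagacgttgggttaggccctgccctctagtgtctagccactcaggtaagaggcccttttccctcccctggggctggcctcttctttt
Krt18: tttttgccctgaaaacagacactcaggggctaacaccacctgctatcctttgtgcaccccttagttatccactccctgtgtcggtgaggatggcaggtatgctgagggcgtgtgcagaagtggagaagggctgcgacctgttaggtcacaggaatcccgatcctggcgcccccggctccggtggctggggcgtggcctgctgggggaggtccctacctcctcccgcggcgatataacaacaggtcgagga

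Of the other trophectoderm transcription factors in the list, 1 was called lower and 0 higher. Hand1, a factor of trophoblast giant cells, fell from 103, 126 and 150.3 CPM in morulae to 31.3, 54.3 and 25.5 CPM in blastocysts (change -1.80 ± 0.31, adjusted p 0.0336). Cdx2, which specifies the trophectoderm, was already at 298, 169 and 223 CPM in morula heavy fractions and stood at 294, 296 and 282 CPM in blastocysts (0.37 ± 0.22, adjusted p 0.374). Gata3 stood at 42.5, 36.9 and 43.2 CPM and 59.1, 25.7 and 40.7 CPM (-0.04 ± 0.33, adjusted p 0.96), and its groups overlapped. Eomes, a T-box factor of trophoblast stem cells, was low, at 0.947, 5.46 and 1.83 CPM in morulae and 12.6, 4.13 and 7.46 CPM in blastocysts (1.35 ± 0.61, adjusted p 0.245), with overlapping groups.

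Of the 16 trophectoderm genes tested out of 20 listed, 3 were called higher (Krt8, Krt18 and Gata2) and 1 lower (Hand1), against 0.634% and 0.616% of all genes tested. The median change was 1.13 against 0.03 over all genes. Of the other 4 genes listed, 1 did not pass the filter on low values and 3 were not analysed here. The summed level of the 6 trophectoderm markers Cdx2, Eomes, Gata2, Gata3, Krt8 and Krt18 ranged from 932 to 1796 CPM in morula gradients and from 4709 to 7379 CPM in blastocyst gradients. Krt8 and Krt18 made up most of that sum. Gata2 was also higher in blastocysts, whereas the groups of Cdx2, Gata3 and Eomes overlapped. In bulk samples like these, more cells of a type and more RNA per cell cannot be told apart.

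Several genes of lipid and retinoid handling, a galectin and an annexin rose. Adh1, an alcohol dehydrogenase that oxidises retinol, had the highest change of all called genes: 0.0297, 5.02 and 4.28 CPM in morula heavy fractions and 142, 47.1 and 377 CPM in blastocysts, a difference of 5.43 ± 0.83 on the log2 scale (adjusted p 0.0263). Blastocyst gradients themselves ranged widely for Adh1, with gradient B lowest and gradient C highest. Lgals1, which encodes the sugar-binding protein galectin-1, stood at 80.1, 179 and 167 CPM in morulae and 1241, 544 and 1385 CPM in blastocysts (2.86 ± 0.40, adjusted p 0.0234). Again gradient B was the lowest blastocyst gradient, and it was still above each morula gradient. Anxa2, a calcium-dependent membrane-binding protein, rose from 133, 269.5 and 235 CPM to 568, 634 and 661 CPM (1.60 ± 0.26).

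Plin2, which coats lipid droplets, rose from 387, 708 and 507 CPM to 1383, 1416 and 1799.7 CPM (1.55 ± 0.23, adjusted p 0.0259). The fatty acid carrier Fabp3 rose from 863, 910.3 and 695 CPM to 2529.8, 1586 and 2571 CPM (1.41 ± 0.22). Apoe, the lipoprotein component, rose from 199, 263 and 343 CPM to 759, 570.4 and 884 CPM (1.47 ± 0.24). In the list of apolipoprotein, retinoid and lipid transport genes, 4 of 11 tested were called higher and 0 lower, with a median change of 0.83; 24 genes were listed, and the others did not pass the filter on low values or were not analysed here. In the list of galectins, annexins and S100 proteins, 2 of 17 were called higher (Lgals1 and Anxa2) and 0 lower, with a median of 0.80. The counts of both lists stand against 0.634% called higher and 0.616% lower among all genes tested.

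Glycolysis genes had the highest median change among the lists with at least 8 genes tested, apart from a list of aldehyde dehydrogenases drawn up after values had been seen. Of the 18 genes tested, 4 were called higher and 0 lower, against 0.634% and 0.616% of all genes, and the median change was 1.38. In 13 every blastocyst gradient lay above every morula gradient, against 13.7% of all genes tested. Pkm, the pyruvate kinase of the last step of glycolysis, rose from 173, 289.6 and 252 CPM in morulae to 668, 746 and 723 CPM in blastocysts (1.61 ± 0.21, adjusted p 0.0234). Eno1, the enolase just upstream, rose from 224, 317 and 224 CPM to 661, 681 and 991 CPM (1.60 ± 0.22), though its reads may be shared with a near-identical copy. Pgk1, a phosphoglycerate kinase that makes ATP, rose from 19.6, 33.2 and 17.6 CPM to 64.3, 66.9 and 92.8 CPM (1.66 ± 0.32), and Gpi1, which makes fructose 6-phosphate, from 65.7, 84.6 and 38.3 CPM to 169, 155 and 189 CPM (1.50 ± 0.29). For each of the 4 genes gradient B was the highest morula gradient, and it was still well below the lowest blastocyst gradient.

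In mitochondrial energy metabolism the share of oxidative phosphorylation genes called was close to the 1.25% of all genes tested. Among 76 oxidative phosphorylation genes 1 was called higher, Sdhb, the iron-sulphur subunit of succinate dehydrogenase (219, 292 and 277 CPM in morulae, 609.9, 573 and 827 CPM in blastocysts, 1.34 ± 0.20), 0 were called lower, and the median was 0.19. In 24 of the 76 every blastocyst gradient lay above every morula gradient, and in 8 the reverse, against 13.7% and 13.9% of all genes. By limma 28 had an unadjusted p under 0.05, against 2232 of all 10721 genes tested. Lists of fatty acid oxidation and aldehyde dehydrogenase genes were written after the values had been seen. In the former, 2 of 23 genes were called higher, Acaa2, the thiolase of the last step of mitochondrial beta-oxidation (76.9, 111 and 106 CPM to 343, 311 and 437 CPM, 1.88 ± 0.22), and Ech1, an enoyl-CoA isomerase (46.5, 61.8 and 87.5 CPM to 228, 209 and 272 CPM, 1.88 ± 0.26). In the latter, 3 of 11 were called higher (Aldh18a1, Aldh1l1 and Aldh3b2), with a list median of 1.49. Aldh1l1, a folate-metabolising dehydrogenase, went from 0, 0.599 and 0 CPM to 4.78, 12.8 and 10.6 CPM (3.06 ± 0.52). Acaa2, Ech1, Aldh18a1 and Aldh3b2 were chosen after their values were seen, as were Sox15, Trim43a, Bok, Tbx3, Nppb, Lin9, Cstf2t, H2-DMa, Rpl3-ps1 and Sat1 among the genes that follow.

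**Figure D2:**
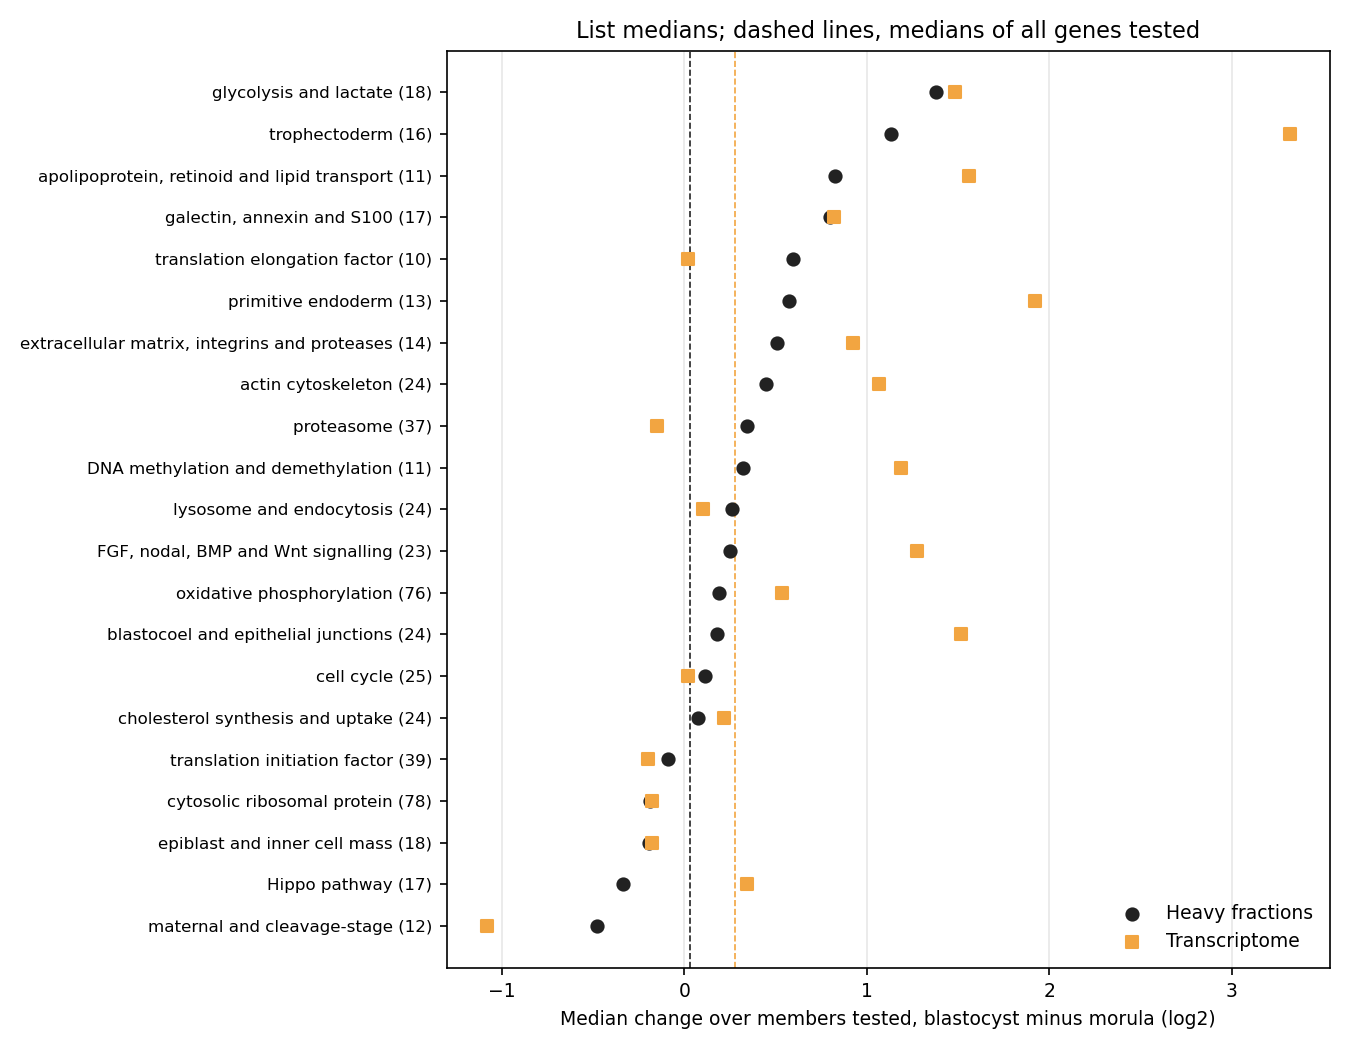
Median change from morula to blastocyst of the gene lists with at least 8 genes tested in the heavy fractions (number tested in parentheses), in heavy fractions (circles) and transcriptomes (squares), on the log2(CPM + 1) scale. Dashed lines are the medians of all genes tested, 0.03 in heavy fractions and 0.27 in transcriptomes; lists drawn up after values had been seen are not plotted, and of those plotted the glycolysis list has the highest heavy median (1.38) and the trophectoderm list the highest transcriptome median (3.32).

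In the list of epiblast and inner cell mass genes, only Klf17 was called. Whether Klf17 belongs to the inner cells of these embryos was not tested. Klf17, a zinc-finger factor of early embryos, fell from 26.7, 15 and 21.3 CPM in morula heavy fractions to 1.29, 1.28 and 2.51 CPM in blastocysts (-3.03 ± 0.46, adjusted p 0.0263), and the highest blastocyst gradient was well below the lowest morula gradient. Pou5f1, the pluripotency factor Oct4, stood at 846, 1248 and 1093 CPM and 1342, 1713 and 1156 CPM (0.40 ± 0.21, adjusted p 0.304). Nanog stood at 193, 184 and 287 CPM and 162, 188 and 158 CPM (-0.36 ± 0.22, adjusted p 0.38). Sox2, which marks the inner cells, was low at both stages, with 1.97, 0.795 and 3.78 CPM in morulae and 1.74, 0.158 and 1.14 CPM in blastocysts (-0.63 ± 0.55, adjusted p 0.556). Pou5f1, Nanog and Sox2 had overlapping groups. Of 18 genes in the list, 1 was called lower (Klf17) and 0 higher, against 0.616% and 0.634% of all genes, with a median of -0.19.

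Limma called 0 of 13 primitive endoderm genes (median 0.57), 1 of them with an unadjusted p under 0.05, and edgeR and DESeq2 called 0 as well. Of all 10721 genes tested 2232 had an unadjusted p under 0.05. Sox17, a late primitive endoderm factor, had 0, 1.14 and 0 CPM in morulae and 7.05, 3.09 and 7.83 CPM in blastocysts without overlap (2.36 ± 0.54, adjusted p 0.0667), below the call. Gata6, an early factor of the lineage, stood at 41.8, 24.1 and 51.8 CPM and 31, 19 and 28.3 CPM (-0.53 ± 0.36). Gata4 stood at 0.279, 8.42 and 9.23 CPM and 1.54, 2.33 and 2.97 CPM (-0.63 ± 0.78), and its lowest and highest values were both in morula gradients.

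Transcripts of the cleavage stages were among the largest falls in the heavy fractions. Trim43c, a member of a tripartite-motif gene family expressed before implantation, fell from 79.1, 12.1 and 22.9 CPM in morulae to 1.67, 1.06 and 0.24 CPM in blastocysts (-3.95 ± 0.68, adjusted p 0.0336), the largest fall of the 66 genes. Trim43b fell from 685, 321 and 318 CPM to 39.9, 77.5 and 21.9 CPM (-3.30 ± 0.45). Morula gradient A was the highest for both. The Trim43 genes are near-identical copies, so how reads were divided among them is uncertain. Obox6, an oocyte-specific homeobox gene that also has close copies, fell from 151, 64.1 and 130.2 CPM to 27.7, 36.4 and 29.5 CPM (-1.77 ± 0.34). Ooep, a component of the maternal complex beneath the egg membrane, went the other way, from 25, 20.9 and 15.7 CPM to 107, 45.1 and 107 CPM (1.94 ± 0.38, adjusted p 0.0447).

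Of the 28 maternal and cleavage-stage genes, 12 passed the filter on low values in the heavy fractions, 4 were called lower (Trim43a, Trim43b, Trim43c and Obox6) and 1 higher (Ooep), and the median change was -0.48. Among all genes tested 0.616% were called lower and 0.634% higher. Sox15, an HMG-box transcription factor of the early embryo, fell from 574, 539.5 and 397 CPM to 124, 219.7 and 189 CPM (-1.52 ± 0.25).

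Calls in the translation machinery itself were Rpl41, Rpl3 and Eif5, read against the 1.25% called among all genes tested. Of 78 cytosolic ribosomal protein genes 1 was called lower, Rpl41, from 20317, 8801 and 9568 CPM to 5067, 4140.0 and 3746 CPM (-1.48 ± 0.30), and 1 higher, Rpl3, from 411, 506 and 364 CPM to 773, 834 and 965 CPM (1.01 ± 0.18). Both have processed copies in the genome, so their reads are uncertain. The list had a median of -0.19. In 34 of the 78 every morula gradient lay above every blastocyst gradient, against 13.9% of all genes tested. In 7 the reverse held, against 13.7%. Of 39 initiation factors 1 was called lower, Eif5, which triggers GTP hydrolysis when the start codon is found, from 626, 484 and 666 CPM to 166, 169.8 and 256 CPM (-1.60 ± 0.22, adjusted p 0.0234), and the list median was -0.09, or 0.04 when logged values were averaged over fractions. Limma called 0 of 10 elongation factors (median 0.60), 7 of which had an unadjusted p under 0.05, while DESeq2 called 2 and edgeR 0. Among all 10721 genes tested 2232 had such a p by limma, and DESeq2 called 631.

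Of 37 proteasome genes 2 were called higher and 0 lower, against 0.634% and 0.616% of all genes, with a median of 0.34. Psme2, the beta subunit of the proteasome activator PA28, rose from 41.3, 42.1 and 35.1 CPM to 108, 98.9 and 139 CPM (1.51 ± 0.24), and Psma7, an alpha subunit of the core particle, from 679, 445 and 538 CPM to 1189, 1029 and 1438 CPM (1.14 ± 0.20). In 17 of the 37 every blastocyst gradient lay above every morula gradient, and in 0 the reverse, against 13.7% and 13.9% of all genes tested.

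Among 24 genes of junctions and fluid transport limma called 0 in the heavy fractions, with 5 at an unadjusted p under 0.05, against 2232 of all 10721 genes. DESeq2 called 1, against 631 of all genes, and edgeR 0. The list median was 0.18, and without morula gradient A it was -0.16. Atp1b1, the beta subunit of the sodium pump, stood at 3.79, 4.24 and 13.9 CPM in morulae and 7.44, 2.73 and 5.58 CPM in blastocysts (-0.29 ± 0.59), and the water channel gene Aqp3 at 171, 133 and 326 CPM and 186, 242 and 228 CPM (0.15 ± 0.31). The groups of both genes overlapped. Limma, edgeR and DESeq2 each called 0 of 17 Hippo pathway genes, 1 of which had an unadjusted p under 0.05, and the median of -0.34 became 0.22 when logged values were averaged over fractions. Of 24 actin cytoskeleton genes Actg1, the cytoplasmic gamma-actin, was called higher (1049, 1643 and 1565 CPM to 3142, 3541 and 2836 CPM, 1.18 ± 0.20) and 0 lower. Of 25 cell cycle genes Cdkn1a, the cyclin-dependent kinase inhibitor p21, was called lower (418, 244 and 249.8 CPM to 112, 128 and 117 CPM, -1.30 ± 0.24) and 0 higher. These single calls stand against 0.634% called higher and 0.616% lower among all genes tested.

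Among the other lists limma called 0 genes of cholesterol synthesis (24 tested, median 0.07), lysosome (24, 0.26), extracellular matrix (14, 0.51), growth factor signalling (23, 0.25), DNA methylation (11, 0.32), nuclear noncoding RNA (7, -0.50) and mitochondrially encoded genes (10, -0.65). In that order 6, 5, 3, 8, 2, 1 and 2 of them had an unadjusted p under 0.05, DESeq2 called 4, 1, 2, 2, 0, 0 and 2, and edgeR called 0 throughout. Of all 10721 genes tested 2232 had such a p by limma and 631 were called by DESeq2. The growth factor median was -0.10 with edgeR and -0.22 without morula gradient B, and the cholesterol median -0.13 without morula gradient A.

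The other genes among the 10 with the largest changes in each direction fall in no single list. Higher in blastocysts were Ccdc42, a coiled-coil protein of the sperm tail (1.39, 1.7 and 4.29 CPM to 32.8, 13.4 and 23.5 CPM, 2.81), C8g, a complement chain (2.54), Fam117a (2.48), and Emilin1, a matrix glycoprotein (2.46). C8g and Emilin1 had morula levels of at most 0.766 CPM in any gradient. Lower in blastocysts were Rb1cc1, a subunit of the complex that starts autophagy (32, 20.1 and 27.5 CPM to 1.31, 3.69 and 3.33 CPM, -2.91), and Larp4, which binds poly(A) tails (99.9, 224 and 337 CPM to 24.5, 44.2 and 29.3 CPM, -2.59). Lower too were Dmtf1, a Myb-like transcription factor (30.3, 32.8 and 49.2 CPM to 5.34, 4.09 and 6.51 CPM, -2.59), Plekhm3 (-2.85), the fatty acid elongase Elovl3 (-2.64), and the unnamed transcripts A530040E14Rik (-3.36) and I0C0044D17Rik (-2.72).

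The change in heavy fractions was set beside the change in whole embryos, measured in libraries that share no sample with the gradients. In the transcriptome pools 3907 of 12145 genes tested were called (32.2%), 2752 higher (22.7%) and 1155 lower (9.51%), and the median of all genes was 0.27. Quantile normalisation moved that median to 0.00 and edgeR to 0.01, and the calls then split into 1769 higher and 1764 lower, and 2182 higher and 1970 lower. Of the 68 genes higher in heavy fractions, 54 were called higher in the transcriptome (79.4% of the 68 and 2.13% of the 2530 transcriptome calls tested in heavy fractions), 0 were called lower, 13 were tested and not called, and 1 was not tested. Of the 66 lower genes, 50 were called lower (75.8% of the 66 and 5.54% of 903), 0 were called higher and 16 were not called. The 2530 genes higher in the transcriptome had a median heavy change of 0.52, against a median transcriptome change of 1.51, and the 903 lower genes -0.79 against -1.43. Both sets were picked by their transcriptome change, with a minimum of 1. A larger change in the pools than in the heavy fractions thus follows in part from that choice.

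**Figure D3:**
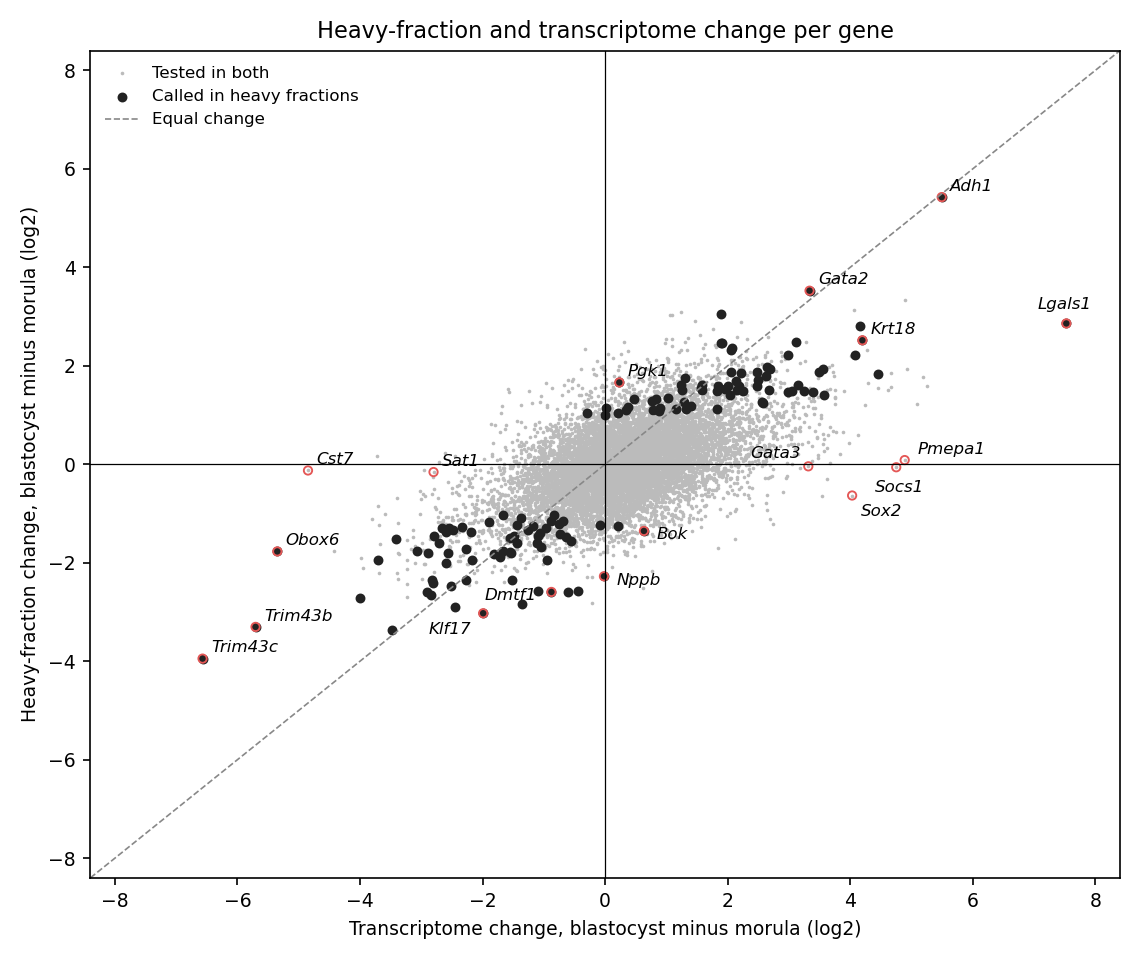
Change of each gene in the heavy fractions (vertical axis, 3 against 3 gradients) against its change in the transcriptome (horizontal axis, 4 against 4 pools), blastocyst minus morula on the log2(CPM + 1) scale. Grey points are genes tested in both, black points the called genes, red rings the named genes; Adh1 and Gata2 lie by the dashed line of equal change, Lgals1 and Trim43c change more in the transcriptome, and Nppb and Bok lie at -0.02 and 0.63 on the horizontal axis and at -2.27 and -1.35 on the vertical one.

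Whether the 2 changes differed was tested as an interaction (heavy change minus transcriptome change) over 6 gradient means and 8 pools. Of 12595 genes tested 1483 were called (11.8%), 397 with a positive difference (3.15%) and 1086 with a negative one (8.62%). The median difference over all genes was -0.25, and it moved to 0.00 with quantile normalisation (655 positive and 767 negative calls) and to -0.09 with edgeR (573 positive and 473 negative), so the split of the calls depended on the scaling. Without morula gradient A 2256 genes were called.

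Negative differences were mostly those of genes that rose in the transcriptome. The transcriptome change is subtracted in the difference, so this and the medians that follow come in part from its definition. Of the 1086 genes, 817 were called higher in the transcriptome and 19 were called in the heavy fractions. Their median change was 1.56 in the transcriptome and -0.16 in the heavy fractions, and their heavy level stood above the pool level in morulae (median log2 difference 1.29) and below it in blastocysts (-0.62). Lgals1 shows this with full values. The 4 morula pools held 3.19, 1.78, 2.89 and 2.76 CPM and the 4 blastocyst pools 587, 478, 1014 and 692 CPM, a change of 7.53. The morula heavy fractions already held 80.1, 179 and 167 CPM, and the difference was -4.67 ± 0.47 (adjusted p 4.17e-05). This was not particular to the heavy side. The light side of the morula gradients held 42.2, 131 and 79.2 CPM of Lgals1, also above the pools, and changed by 3.07.

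Among the genes called with a negative difference were the lineage transcription factors Cdx2, Gata3, Eomes, Nanog and Sox2, but not Gata2, Hand1, Pou5f1, Klf17 or Gata6. The difference sets heavy fractions against pools and not against the light side. Over the trophectoderm list the light side too had a lower median change than the pools (1.62 against 3.32). Cdx2 rose from 8.58 ± 4.2 to 92.5 ± 12.4 CPM in the pools (SD, n = 4), where its heavy level was 298, 169 and 223 CPM in morulae and 294, 296 and 282 CPM in blastocysts (difference -3.01 ± 0.40, adjusted p 0.000326). Gata3 rose from 14.6 ± 1.5 to 156 ± 25.9 CPM in the pools (-3.36 ± 0.35, adjusted p 5.11e-05). Nanog rose from 47.5 ± 29.4 to 151 ± 25.3 CPM (-2.17 ± 0.44, adjusted p 0.00463), and Sox2 from 0.192 ± 0.268 to 18.6 ± 4.89 CPM (-4.67 ± 0.55, adjusted p 0.000139). Sox2 differs from the others in that its heavy level stayed at or below 3.78 CPM in each gradient of either stage. Eomes rose from 1.39 ± 0.703 to 22.6 ± 4.4 CPM in the pools (-1.98 ± 0.61, adjusted p 0.0423), and its call was lost under 13 alternatives, edgeR and quantile normalisation among them. The difference was not called for Pou5f1 (-0.38 ± 0.36, adjusted p 0.535), Gata2 (0.19 ± 0.52, adjusted p 0.857) or Hand1 (0.77 ± 0.41, adjusted p 0.226), and Hand1 fell in the pools as well (-2.57).

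The remaining genes with the lowest differences were Socs1, an inhibitor of cytokine signalling (4.75 in the transcriptome, -0.06 in heavy fractions, difference -4.81 ± 0.60), Pmepa1, which dampens TGF-beta signalling (4.89, 0.09 and -4.80 ± 0.53 in the same order), and the desmosomal cadherin Dsg2 (3.54, -0.64 and -4.18 ± 0.64). Socs1 had 52.3, 139 and 186 CPM in morula heavy fractions against 5.77, 1.23, 3.33 and 4.21 CPM in the morula pools, and 109, 117 and 94 CPM against 69.7, 103, 118 and 204 CPM in blastocysts. Pmepa1, by contrast, stayed at or below 1.21 CPM in the heavy fractions of each gradient while its pools rose to 26, 40.9, 35.2 and 47.9 CPM. Atp1b1 rose from 3.77 ± 2.06 to 34.8 ± 10.7 CPM in the pools with no call in the heavy fractions (difference -3.24 ± 0.67, adjusted p 0.00509). The keratins rose in both kinds of library and more in the pools. Krt8 changed by 4.09 in the pools against 2.22 in heavy fractions (difference -1.87 ± 0.34, adjusted p 0.00264). Krt18 changed by 4.20 against 2.52 (difference -1.68 ± 0.41, adjusted p 0.0135, not called by edgeR). On the light side of the gradients Krt8 changed by 1.62 and Krt18 by 2.09, also less than in the pools.

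Positive differences were mostly those of genes that fell in the transcriptome (263 of 397 called lower there, median -1.38, with a median heavy change of 0.27). This too comes in part from the subtraction. Obox6 fell from 622, 1376, 1941 and 1500.5 CPM in the morula pools to 22.7, 34.4, 21.4 and 47.2 CPM in the blastocyst pools (-5.35). It fell by less in the heavy fractions (-1.77, difference 3.58 ± 0.51, adjusted p 0.000479). On the light side of the gradients it also fell by less than in the pools (-1.42). Cst7, a cysteine protease inhibitor, fell from 79.8 ± 14.5 to 1.97 ± 1.13 CPM in the pools and stood at 0.0413, 11.5 and 10.4 and 7.01, 6.8 and 0.827 CPM in the heavy fractions (4.72 ± 0.99, adjusted p 0.00578). Its heavy values were scattered, and edgeR did not call it. The surface glycoprotein gene Cd24a (3.88 ± 0.67), Mbd3l2 (3.24 ± 0.62) and Fam169b (3.12 ± 0.71) completed the 5 largest; Mbd3l2 had at most 0.71 CPM in any heavy mean, and edgeR did not call Cd24a or Fam169b. Sat1, which acetylates spermidine and had the lowest adjusted p of the interaction (9.61e-06), fell from 3706 ± 605 to 530.2 ± 69.7 CPM in the pools and held 1072, 1035 and 1298 CPM and then 1118, 1027 and 903 CPM in the heavy fractions.

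**Figure D4:**
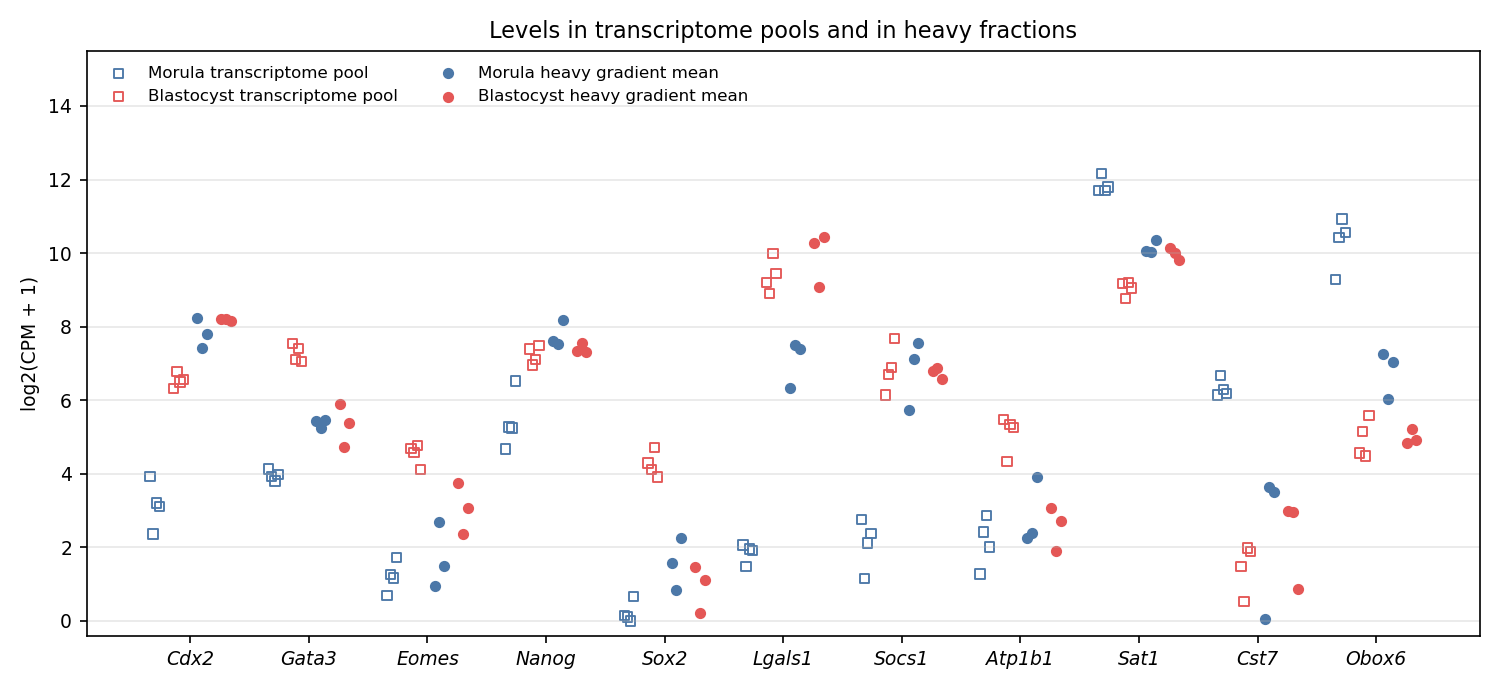
Levels of 11 genes called in the interaction test, as log2(CPM + 1), in each transcriptome pool (open squares, n = 4 per stage) and each heavy gradient mean (filled circles, n = 3 per stage). The pools of morula (blue) and blastocyst (red) lie apart for each gene, whereas the heavy values of the stages overlap for Cdx2, Gata3, Eomes, Nanog, Sox2, Socs1, Atp1b1, Sat1 and Cst7.

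A smaller set was called in the heavy fractions without a call in the transcriptome. Of the 13 higher genes of this kind 4 had a called positive difference in the interaction test, against 3.15% of all genes tested. Genes picked by these same values favour such a difference in advance, so the count is a description only. Pgk1 changed by 1.66 in heavy fractions and 0.23 in the transcriptome (difference 1.43 ± 0.40, adjusted p 0.0247), Psma7 by 1.14 and 0.01 (1.13 ± 0.24, adjusted p 0.00709), and Rpl3 by 1.01 and 0.00 (1.01 ± 0.22, adjusted p 0.00798). The fourth, Rpl3-ps1 (difference 1.35), is a processed copy of Rpl3. These calls varied in how they held over 20 alternatives. The difference of Psma7 lost its call in 2, with quantile normalisation and without morula gradient B, as it fell to 0.93 and 0.99, under the minimum of 1. That of Rpl3 lost its call in 8, with values of 0.79 to 0.99: with quantile normalisation, without ribosomal RNA, and without morula gradient A or C, blastocyst gradient C, morula pool C or D, or blastocyst pool B. That of Pgk1 lost its call in 6, with adjusted p values of 0.0501 to 0.0682: with weights per kind of library, and without morula gradient C, blastocyst gradient C, morula pool C, or blastocyst pool B or D.

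Of the 16 lower genes 6 had a called negative difference, against 8.62% of all genes tested, and the same choice favours it. Dmtf1 lacked a transcriptome call only by the size of its change (-0.88, limma adjusted p 0.000825). Bok, a cell-death gene of the Bcl-2 family, fell from 931, 701 and 782 CPM to 304, 388 and 257 CPM in heavy fractions (-1.35 ± 0.20), whereas its pools stood at 33.3 ± 9.39 and 50.7 ± 3.83 CPM (difference -1.99 ± 0.31, adjusted p 0.00111). Tbx3, a T-box factor, fell from 103, 86 and 103 CPM to 37.3, 44.3 and 41.6 CPM (-1.22 ± 0.23), against 131 ± 25.6 and 123 ± 9.88 CPM in the pools (-1.14 ± 0.26, adjusted p 0.00964, not called by edgeR). The other 4 were Lin9, a subunit of the MuvB cell cycle complex (-2.58 in heavy fractions and -0.45 in the transcriptome), Cstf2t, a polyadenylation factor (-2.58 and -0.60), Dmtf1 (-2.59 and -0.88, difference -1.72 ± 0.36), and H2-DMa, a chaperone of antigen presentation (-1.25 and 0.21). Nppb, which encodes a natriuretic peptide, fell from 73.5, 68.3 and 101 CPM to 12.1, 22.6 and 14.1 CPM (-2.27 ± 0.32), with pools that overlapped and no call of the difference (4.41, 9.83, 1.54 and 20.4 CPM and 12.7, 2.97, 4.09 and 9.95 CPM, adjusted p 0.0716).

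Over all genes tested, 22.7% were called higher and 9.51% lower in the transcriptome. In the interaction 3.15% had a called positive difference and 8.62% a negative one. By list, the junction and fluid transport genes were called higher in the transcriptome in 17 of 25 cases (median 1.52), with 12 of 25 negative differences in the interaction. Trophectoderm genes were called higher in 13 of 16 cases and lower in 1 (median 3.32), with 8 of 17 negative differences. Primitive endoderm genes were called higher in 11 of 14 cases and lower in 1, with 4 negative differences and 1 positive among 15. Glycolysis genes were called higher in 13 of 19 cases and lower in 2 (median 1.49), with 3 positive and 4 negative differences among 20. Proteasome genes had a transcriptome median of -0.15 and 6 of 37 positive differences, with 0 negative. Light-side medians were 0.60 for junction genes, 1.62 for trophectoderm genes, 0.36 for primitive endoderm genes and 0.92 for glycolysis genes. Each was below the transcriptome median of its list (1.92 for primitive endoderm). For proteasome genes the light median was 0.73. The test of heavy against light, given below, called 0 genes in each of these lists and 2 among all 12166 genes tested.

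The light fractions come from the same gradients and lysates. Of 11276 genes tested there 26 were called (0.231%), 15 higher (0.133%) and 11 lower (0.0976%). The median of all genes was 0.21, or 0.05 with quantile normalisation, which gave 38 higher and 73 lower calls. Limma called 17 without morula gradient B and 0 without morula gradient C, blastocyst gradient A or blastocyst gradient C (2407, 1581 and 1182 genes with an unadjusted p under 0.05), and edgeR called 0 (1523). The 68 genes higher in heavy fractions had a median change of 1.57 there, 1.21 in the light fractions and 2.05 in the transcriptome, and the 66 lower genes -1.70, -0.86 and -1.67. Fraction by fraction, the median difference of the 68 genes was 1.45 to 1.76 across fractions 6 to 10 and 1.07 to 2.02 across fractions 1 to 5. For the 66 genes it was -1.97 to -1.31 and -0.99 to -0.66. Both sets were picked by their mean over fractions 6 to 10 of these libraries. Larger differences there than in the light fractions thus follow in part from that choice.

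The share of reads from Krt8 was highest in the last fraction at both stages. In fraction 10 Krt8 had 1399 ± 434 CPM in morulae and 7028 ± 1766 CPM in blastocysts (SD, n = 3), against 162 ± 108 and 813 ± 249 CPM in fraction 6. Lgals1 had 195 ± 71 and 1386 ± 579 CPM in fraction 7 and 105 ± 49.5 and 809.6 ± 271 CPM in fraction 10. Klf17 differed widely between gradients of a stage in the same fraction. Its highest morula means were 44.8 ± 29.9 CPM in fraction 4 and 39.4 ± 19.4 CPM in fraction 9, against 15.3 ± 23.1 and 1.36 ± 2.19 CPM in blastocysts. In fractions 1, 2 and 6 its mean was higher in blastocysts (1.44 ± 1.25 against 13.2 ± 22.9 CPM, 1.84 ± 1.45 against 17.2 ± 16 CPM, and 0.204 ± 0.263 against 2.2 ± 0.605 CPM), and in the other 7 fractions it was lower. Hand1 was lower in blastocysts in the mean of each of the 10 fractions.

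**Figure D5:**
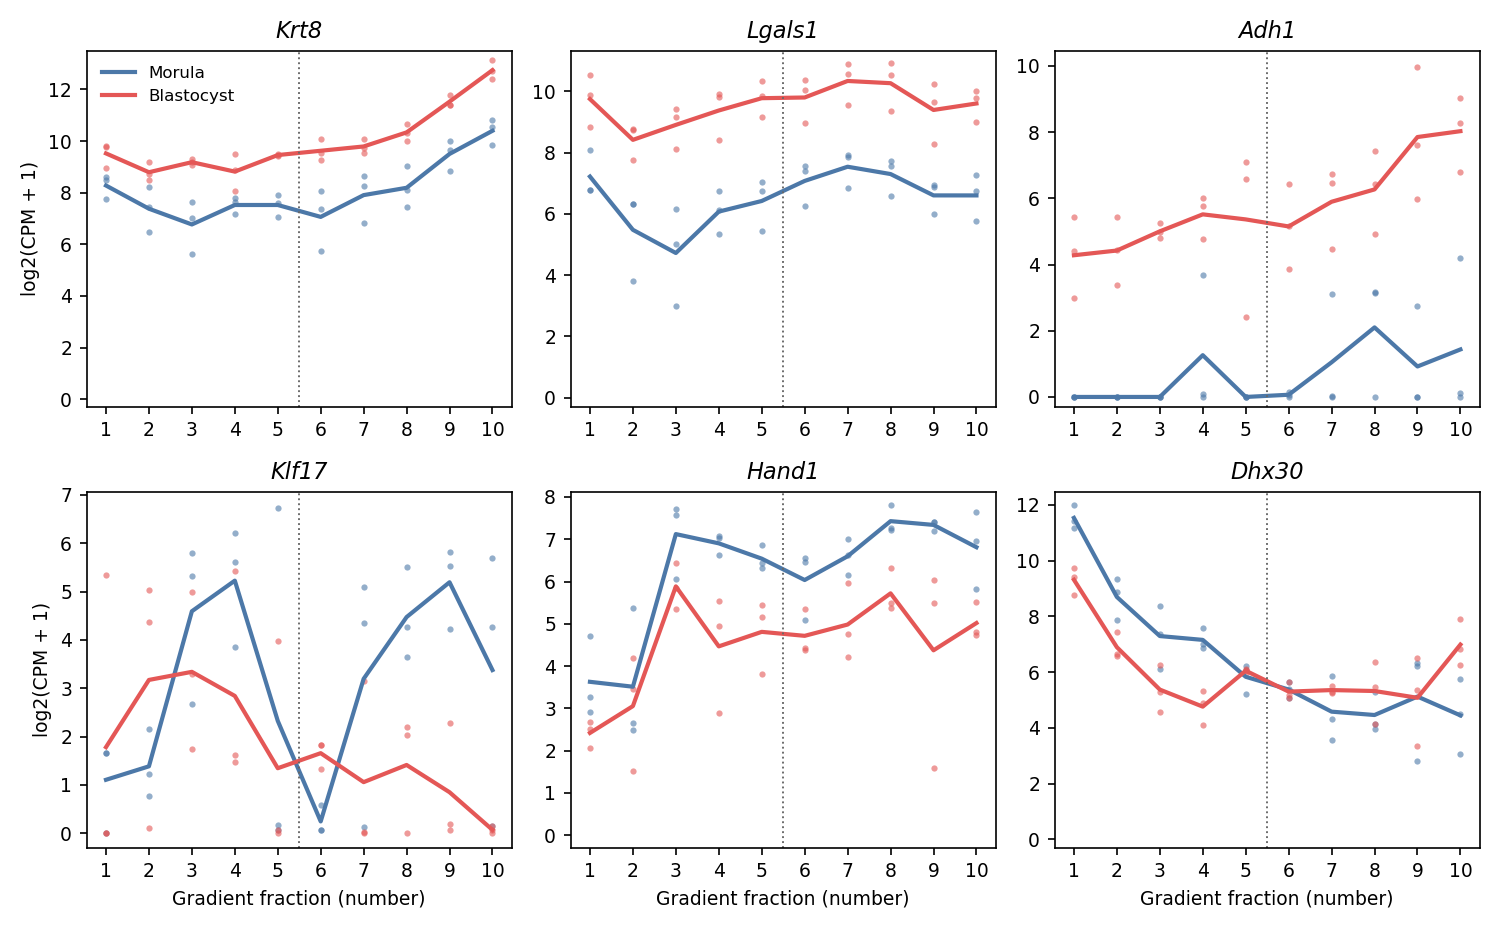
Level of 6 genes in each of the 10 gradient fractions, as log2(CPM + 1). Points are single gradients (n = 3 per stage), lines join the mean of the 3 logged values, and the dotted line separates light from heavy fractions; Krt8 climbs toward fraction 10 at both stages, and the blastocyst line of Dhx30 lies below the morula line in fractions 1 to 4 and close to it or above it in fractions 5 to 10.

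Whether transcripts moved between the sides of the gradient was tested as the stage difference of heavy minus light, with each gradient as its own control. Of 12166 genes, 2 were called (0.0164%), 1 in each direction (0.00822%), and 1627 had an unadjusted p under 0.05. Dhx30, a helicase needed for the mitochondrial ribosome, had a change of 2.83 ± 0.32 (adjusted p 0.0292). Its light-side mean was 704, 647 and 984 CPM in morulae and 199.5, 221 and 131 CPM in blastocysts, and its heavy-side mean 26.8, 39.6 and 37.6 and 46.3, 100.1 and 41.9 CPM. ND1, a mitochondrially encoded subunit of complex I, had a change of -1.63 ± 0.17 (adjusted p 0.0292), with 2906, 1961 and 8453 CPM and 6971, 4482 and 7749.8 CPM on the light side and 222, 185 and 588 and 192, 106 and 197 CPM on the heavy side. Limma called 5 genes without morula gradient A and 0 without any other gradient (899 to 1972 genes with an unadjusted p under 0.05), and edgeR called 0 (1316).

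Markers of cells other than the embryo were looked for in the same libraries. Of 12 cumulus and granulosa markers 5 were in the table, and Inha, Fshr and Cyp19a1 stayed under 1 CPM in each heavy mean, with a summed level of 71.2 to 119 CPM in morulae and 47.7 to 47.8 CPM in blastocysts, nearly all of it from Amhr2. Of 10 blood and immune markers 4 were in the table, with summed levels of 54.5 to 82.7 and 34 to 37.8 CPM. Hba-a1, an alpha-globin gene with a near-identical copy, fell from 45.8, 34.9 and 30.8 CPM to 11.1, 11.6 and 8.13 CPM (-1.75 ± 0.34), and in the pools from 30.1 ± 7.57 to 2.65 ± 0.615 CPM. Oocyte and cleavage markers summed to 34.9 to 99.2 CPM in morulae and 13.6 to 25.1 CPM in blastocysts, with Gdf9 and Bmp15 under 1 CPM in each mean. Trim43c, whose fall is given above, and Zp3 made up most of these sums. The groups of Zp3 overlapped (19.4, 21.8 and 18.4 CPM in morulae, 11.4, 16.3 and 21.5 CPM in blastocysts). The part of other cells in any change was not tested.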

How the data were processed

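The 30 heavy and 30 light libraries and 8 transcriptome pools of morulae and blastocysts were taken from a table of 272 libraries, all of whose columns were matched to a sample. Libraries held polyadenylated RNA amplified with a Smart-seq kit and read as 150 bp pairs, per the labels' protocols. The authors deposited 1 value per gene and library in CPM, read counts scaled to 1 M per library, and limma was run on these as given, without rescaling. In the 4 blastocyst pools the deposited values sum to more than 1 M with repeated symbols counted, so their unit was recorded as a signal on the CPM scale; after copies with identical values were dropped, each library used summed to less than 1 M. Whole reads were recovered from the value steps in the morula and blastocyst libraries (100.0% of values below 5000 reads were whole within 0.05 reads). Per the submitters' processing notes, Trim Galore 0.6.7, FastQC, HISAT2 2.2.1, featureCounts 2.0.1 and edgeR were used with build GRCm39. How reads that match several genes were counted is not given in the sources used here. Of 15854 symbols 15771 were kept, since 159 symbols in 76 groups had identical values in every library.

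Mean CPM of fractions 6 to 10 per gradient (fractions 1 to 5 for the light side), pseudocount 1, was tested with limma 3.58.1 in R 4.3.3 (trended moderated test, Benjamini-Hochberg adjustment, genes with a CPM of at least 1 in at least 3 samples), and recovered reads with edgeR 4.0.16 (quasi-likelihood) and DESeq2 1.42.0 as alternatives. The interaction used 14 samples, and the heavy against light test used 12 side means with the gradient as a term. The procedure was tested on simulated data. Depth was 25.0 to 43.2 M reads in heavy libraries, 0.418 to 41.8 M in light ones and 16.0 to 24.3 M in pools. 18S ribosomal RNA took 0.0651 to 1.25% of heavy reads, 0.896 to 3.95% of morula pool reads and 3.94 to 11.6% of blastocyst pool reads. No replicate pair was a repeated library: over 72 pairs the chi-square per degree of freedom of their reads was at least 14.9. Named genes were the 10 largest called changes in each direction, up to 4 called members of each list, 18 landmark genes and the 5 largest in each direction of both interaction tests. Of the genes this names, 2 are not reported here. Members and lists were chosen with earlier results of these data known, and 3 of the 27 lists (mitochondrially encoded, fatty acid oxidation, aldehyde dehydrogenase) after values had been seen. Alternatives covered the pseudocount, filters, fractions averaged, normalisation, ribosomal RNA, tool, replicate block and leaving out each sample.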

Additional observations from a re-analysis of the deposited data

Results flagged for a closer look

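Limma's interaction test, with adjustment over 12595 genes, called a difference between heavy and transcriptome change for 30 of the 62 genes named by rule. Among all genes tested 11.8% were called. The rule itself named the 5 largest calls of this test in each direction, so those were called in advance. Others were named for their heavy change, so the count is a description only. The report also gives Bok, Tbx3, Sat1, Lin9, Cstf2t, H2-DMa and Rpl3-ps1, which were called and were chosen after their values were seen. On the log2 scale, heavy change minus transcriptome change, the difference was negative for Socs1 (-4.81), Pmepa1 (-4.80), Lgals1 (-4.67), Sox2 (-4.67), Dsg2 (-4.18), Gata3 (-3.36), Atp1b1 (-3.24), Cdx2 (-3.01), Nanog (-2.17), Fabp3 (-2.15), Eomes (-1.98), Apoe (-1.92), Krt8 (-1.87), Dmtf1 (-1.72), Krt18 (-1.68) and Pkm (-1.55). It was positive for Cst7 (4.72), Cd24a (3.88), Obox6 (3.58), Mbd3l2 (3.24), Fam169b (3.12), Trim43c (2.62), Trim43b (2.40), C8g (1.82), Sox17 (1.56), Pgk1 (1.43), Hba-a1 (1.32), I0C0044D17Rik (1.28), Psma7 (1.13) and Rpl3 (1.01). Sox17 and C8g were near 0 CPM in the morula pools, and edgeR gave both the opposite sign without a call. The differences of Eomes, Sox17, Hba-a1 and I0C0044D17Rik lost their call under 13, 13, 14 and 14 of 20 alternatives, those of Rpl3, Pgk1, Trim43c and Psma7 under 8, 6, 3 and 2, and those of C8g, Cd24a, Cst7, Fam169b and Krt18 under 1 each, with the 2 reversals of sign by edgeR not counted. What lies behind these differences was not tested.

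Among 114 groups of 4 pools of the named genes, 4 held a pool that stood apart by Dixon's ratio, fewer than the 1 in 20 that chance gives. Aldh1l1 was 3.34 CPM in 1 morula pool and at most 0.896 CPM in the other 3. In the blastocyst pools Trim43c reached 2.93 CPM in 1 pool against 0.952 CPM in the next, Trim43b 55.9 CPM against 29.5 CPM, and Eno1 was 167 CPM in 1 pool against 206 CPM in the next lowest. Groups of 3 gradients are too small for this check.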

How the results depend on the processing

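The direction of all 134 calls was kept under each of the 20 alternatives in which a gene was tested, while their number was not. With groups that did not overlap and the same gradients in each alternative, a kept direction was largely fixed by the call. Limma with all gradients called 134 genes in the heavy fractions, 217 at a CPM minimum of 5, 11 with all 8 stages in the fit, and 0 without a filter, with fractions 8 to 10 alone or by edgeR, while DESeq2 called 631. Leaving out single gradients gave 0 to 215. Fraction 6 of morula gradient A, left out as a choice made after seeing the data, gave 135. The light side had 26 calls, 0 with pseudocount 0.25, 75 at a CPM minimum of 5, 111 with quantile normalisation, 0 by edgeR and 0 to 18 without single gradients. The heavy against light test had 2 calls, 1 with pseudocount 0.25, 0 by edgeR and 0 to 5 without single gradients. The interaction with the transcriptome had 1483 calls and 1059 to 2256 without single samples. The edgeR fits of all comparisons but the heavy change were chosen after seeing the data. The cause of these shifts was not tested.

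Same-lettered heavy gradients of the 2 stages had correlated deviations of 0.072, 0.108 and 0.075, so the letters were not treated as pairs, although each heavy sample correlated best with its own letter, a hint from the data and not from the design. On the light side these correlations were 0.148, 0.051 and 0.113, and each light sample too correlated best with its own letter. In the pools they were -0.075, -0.060, -0.068 and 0.184. With the letter as a replicate block the heavy change had 144 calls (114 of the 134 among them), the light change 528 (285 higher and 243 lower, against 26 without it) and the transcriptome change 3909.

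The sign of some uncalled heavy changes turned. Averaging logged values gave 0.41 for Gata3, 0.19 for Gata6, 0.45 for Atp1b1 and 0.44 for Dsg2. Gata3 was 0.0202 by edgeR and 0.0228 by DESeq2, Cst7 0.20 with pseudocount 0.25, Cd24a -0.48 with fractions 8 to 10 and -0.26 with quantile normalisation, and Pmepa1 -0.17 with the latter. Leaving out single gradients gave -0.32 to 0.26 for Gata3, -0.58 to 0.24 for Atp1b1, -0.12 to 0.52 for Aqp3, -1.30 to 0.58 for Cst7, -0.27 to 0.42 for Cd24a, -0.59 to 0.31 for Socs1 and -0.25 to 0.43 for Pmepa1. The interaction was -3.92 for C8g and -4.72 for Sox17 by edgeR. Precision rests on 3 gradients a group, and genes at a few CPM also on few reads.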

Other observations

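Some called genes outside the lists are given here. They were chosen after their values were seen, and how many genes of similar function were tested and not called was not counted, so they stand as single genes. Gss, glutathione synthetase, stood at 114, 233 and 226 CPM in morula heavy fractions and 419, 597 and 545 CPM in blastocysts (1.49 ± 0.29). Glrx, the glutaredoxin that reduces glutathione-bound proteins, stood at 56.1, 70.3 and 103 CPM and 330.0, 206 and 302 CPM (1.87 ± 0.28), and Gsta4, a glutathione transferase, at 56.9, 30.3 and 50.4 CPM and 175, 103 and 175 CPM (1.71 ± 0.31). Sod2, the mitochondrial superoxide dismutase, changed by 1.13 ± 0.18 and the aldo-keto reductase Akr1b8 by 1.26 ± 0.17.

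Genes that fell, chosen in the same way, included Atg14, a subunit of a lipid kinase complex of autophagy (77.3, 98.5 and 89.8 CPM in morulae, 30.9, 34.4 and 33.7 CPM in blastocysts, -1.39 ± 0.23) and Map1lc3a, which marks the autophagosome membrane (806, 571 and 639.9 CPM, 315, 324 and 265 CPM, -1.15 ± 0.19). Wtap, a subunit of the complex that methylates adenosine in mRNA, went from 268, 214 and 257 CPM to 108, 90.9 and 108 CPM (-1.26 ± 0.19). Elof1 and Supt4a, both transcription elongation factors, changed by -1.24 ± 0.22 and -1.10 ± 0.17. The adjusted p of each of these genes by limma was under 0.05, and each call was lost by edgeR.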
